A study of Mus musculus with 3 samples.

Results

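The insulin-like growth factor (IGF) axis was followed through the cell classes of the mouse abdominal aorta by 9 genes, found by their symbols among the 33696 gene features of the deposited tables. They were the ligand Igf1, the receptors Igf1r and Igf2r, the binding proteins Igfbp3, Igfbp4, Igfbp5 and Igfbp7, and the binding protein proteases Pappa and Pappa2. All 9 symbols were found, and each was paired with 1 Ensembl gene.

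IGF1 drives growth, survival and migration of vascular smooth muscle cells and fibroblasts through IGF1R, a receptor tyrosine kinase of the insulin receptor family. Most IGF1 outside cells is held by IGF binding proteins, and the metalloproteases pappalysin-1 (Pappa) and pappalysin-2 (Pappa2) cut some of these proteins and so free the ligand near its receptor. In the artery wall, IGF1 is made by macrophages and mesenchymal cells as well as reaching the tissue from the liver through the blood.

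RNA of single nuclei was sequenced from droplets in 3 libraries of abdominal aorta, each the only library of its group. The groups were cigarette smoke with an abdominal aortic aneurysm (the aneurysm library), cigarette smoke without an aneurysm (the smoke library), and room air (the room air library). All mice were ApoE-/- on the C57Bl/6 strain and ate a high fat diet, and each exposure ran for 20 weeks. Loss of apolipoprotein E slows the clearing of lipoprotein remnants and leads to atherosclerosis, so the room air library is also from atherosclerosis-prone mice. The number of animals behind a library was not stated in the sources used. Nuclei were purified with beads that bind nuclei, a step that can set how much of each cell class a library holds.

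With 1 library in each group no difference could be tested, and every difference described is one between libraries. Intervals in brackets are 95% intervals for counting error only. A ratio was called higher or lower where it was at least 1.5-fold and the 2 libraries together held at least 20 UMIs of the gene. Each library enters 2 of the 3 comparisons, so the comparisons are not independent of each other.

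The aneurysm library stood apart in depth and cell makeup. It kept 5707 nuclei with a median of 1443 UMIs (unique molecular identifiers, 1 for each captured RNA molecule), against 14001 nuclei and 6225 UMIs in the smoke library and 11022 nuclei and 4058.5 UMIs in the room air library. Adipocyte-like nuclei made up 21.8% of the aneurysm library, 1.56% of the smoke library and 0.345% of the room air library. Pairs of libraries shared 17 to 36 kept cell barcodes. Apoe, the targeted gene, was at 5.02 CPM in the aneurysm library, 5.44 CPM in the smoke library and 3.63 CPM in the room air library (CPM is the share of all UMIs that a gene takes, on the usual CPM scale). Since it is not stated where Apoe is disrupted, these counts check nothing about the genotype.

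Nuclei were clustered and the clusters named from marker genes, so each class is written as "-like". The 4 classes with at least 50 nuclei in every library carry the comparisons. There were 1254 macrophage-like nuclei in the aneurysm library, 6263 in the smoke library and 5358 in the room air library. Smooth muscle-like nuclei numbered 328, 1123 and 896 in the same libraries, fibroblast-like nuclei 745, 659 and 486, and endothelial-like nuclei 1012, 2110 and 1884. Fibroblast-like nuclei were 1 cluster, and the same cluster was the largest of the class in all 3 libraries for smooth muscle-like and for endothelial-like nuclei. The makeup of the macrophage-like class differed between libraries. Of the macrophage-like nuclei, 661 of the aneurysm library lay in a shallow F10-high cluster and 336 in an F13a1- and Cd163-high cluster, whereas in the smoke and room air libraries the Cd5l-high cluster was the largest, with 2002 and 1577 nuclei against 42 in the aneurysm library. Of the endothelial-like nuclei, the Bmp6- and Edn1-high cluster held 40.02% in the aneurysm library, 49.2% in the smoke library and 53.9% in the room air library, and a Ccdc85a- and Adarb2-high cluster held 362 nuclei in the aneurysm library, 179 in the smoke library and 70 in the room air library. A further cluster, with Grin2a and Ano1 among its leading genes and carrying both fibroblast and smooth muscle markers, stayed unnamed, with 912 nuclei in the aneurysm library, 894 in the smoke library and 734 in the room air library.

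Most genes of the axis peaked in the same class in each library. Among the 4 classes, Igf1 was highest in macrophage-like nuclei, Igf1r and Igfbp7 in smooth muscle-like nuclei, and Igfbp3, Igfbp4, Igfbp5 and Pappa in fibroblast-like nuclei. In all, 7 of the 9 genes had the same highest class in the 3 libraries. With each library clustered alone this count was 4. For Pappa in the aneurysm library fibroblast-like and smooth muscle-like nuclei were close, at 36.6 and 35.0 CPM with overlapping intervals. The same 2 classes were close for Igfbp5 in the room air library, at 28.7 and 25.2 CPM. For Igfbp3, fibroblast-like and endothelial-like nuclei had 16.6 and 12.8 CPM in the aneurysm library. In the room air library they had 1.54 and 0.638 CPM, from 3 and 10 UMIs. The count of 7 rests in part on such close values. The exceptions were Igf2r, which was highest in endothelial-like nuclei of the aneurysm library and in macrophage-like nuclei of the smoke and room air libraries, and Pappa2, which was highest in fibroblast-like nuclei of the aneurysm and smoke libraries and in smooth muscle-like nuclei of the room air library. In the room air library Pappa2 was at 1.23 CPM in smooth muscle-like and 1.03 CPM in fibroblast-like nuclei, from 8 and 2 UMIs. Igfbp3, Igfbp5, Igfbp7 and Pappa were among the variable genes from which the clusters were made, so their contrast between clusters is in part built in.

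**Figure D1:**
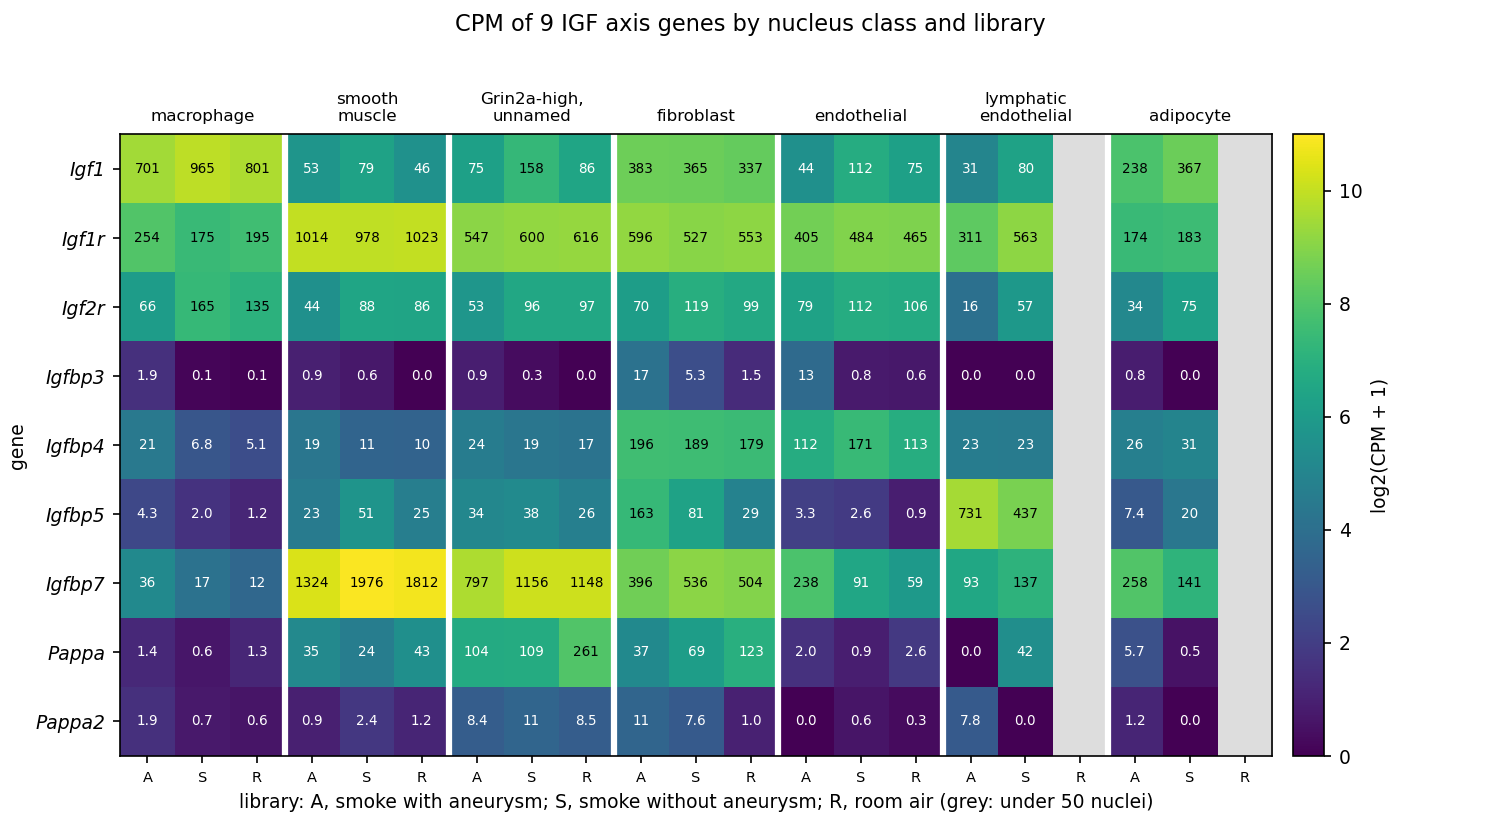
CPM of the 9 genes (rows) by cell class and library (columns; within each class the aneurysm, smoke and room air libraries from left to right), coloured by log2(CPM + 1), with grey cells where a library had under 50 nuclei of the class. Rows are to be read along and not against each other; Igf1 peaks in the macrophage-like columns, Igf1r and Igfbp7 in the smooth muscle-like columns, and Igfbp5 is at 163, 80.5 and 28.7 CPM across the fibroblast-like columns.

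Differences between libraries went both ways. Between the aneurysm and smoke libraries, 33 pairs of a gene and 1 of the 4 classes had at least 20 UMIs in both libraries together. Of these pairs, 11 were higher and 8 lower in the aneurysm library, beside 16.1% higher and 19.2% lower over all features in the same classes. By class, macrophage-like nuclei had 5 higher and 1 lower of 8 genes, beside 23.7% and 15.9% of all features, and smooth muscle-like nuclei had 1 higher and 3 lower of 8, beside 12.8% and 21.4%. Fibroblast-like nuclei had 2 higher and 2 lower of 9, beside 14.8% and 20.0%, and endothelial-like nuclei had 3 higher and 2 lower of 8, beside 12.0% and 20.1%. Between the smoke and room air libraries, 10 pairs were higher and 4 lower in smoke out of 33, beside 13.3% and 4.57% of all features. Macrophage-like nuclei had 1 higher and 1 lower of 8 (10.8% and 5.46% of all features), and smooth muscle-like nuclei 3 and 1 of 8 (12.7% and 4.38%). Fibroblast-like nuclei had 3 and 1 of 9 (16.4% and 5.01%), and endothelial-like nuclei 3 and 1 of 8 (14.2% and 3.44%). Between the aneurysm and room air libraries, 10 were higher and 4 lower in the aneurysm library out of 31, beside 17.6% and 14.2%. There macrophage-like nuclei had 4 higher and 1 lower of 8 (22.5% and 14.0% of all features), and smooth muscle-like nuclei 1 and 1 of 7 (12.9% and 16.0%). Fibroblast-like nuclei had 2 and 1 of 8 (18.7% and 12.9%), and endothelial-like nuclei 3 and 1 of 8 (15.6% and 13.9%). Pairs under the UMI minimum were not counted, and many of those counted had few UMIs in 1 library.

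Upstream sequences are shown for Igf2r, Igfbp3 and Igfbp5, the receptor and the 2 binding protein genes on whose differences between the aneurysm and smoke libraries the results below mainly turn. They are the 250 bases before the RefSeq start of each gene on GRCm38.p6, written from 5′ to 3′ on the gene's own strand, which is the minus strand for all 3. Capitals mark CACGTG, the E-box. It was 1 of 4 motifs searched on both strands, the others being the TATA box (letters TATAAA), a site for AP-1 factors (letters TGANTCA) and the CCAAT box. CACGTG reads the same on both strands.
Igf2r, chr17:12769707-12769956: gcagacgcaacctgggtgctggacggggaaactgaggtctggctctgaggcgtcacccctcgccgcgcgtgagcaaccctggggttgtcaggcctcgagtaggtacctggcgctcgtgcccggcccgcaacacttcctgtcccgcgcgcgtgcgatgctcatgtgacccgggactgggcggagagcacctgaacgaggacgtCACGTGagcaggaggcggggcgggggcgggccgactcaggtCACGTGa
Igfbp3, chr11:7213924-7214173: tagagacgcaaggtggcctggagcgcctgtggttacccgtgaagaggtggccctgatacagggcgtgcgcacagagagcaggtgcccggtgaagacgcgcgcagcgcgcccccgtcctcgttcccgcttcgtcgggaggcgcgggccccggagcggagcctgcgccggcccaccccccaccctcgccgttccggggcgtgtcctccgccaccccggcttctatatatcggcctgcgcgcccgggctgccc
Igfbp5, chr1:72874866-72875115: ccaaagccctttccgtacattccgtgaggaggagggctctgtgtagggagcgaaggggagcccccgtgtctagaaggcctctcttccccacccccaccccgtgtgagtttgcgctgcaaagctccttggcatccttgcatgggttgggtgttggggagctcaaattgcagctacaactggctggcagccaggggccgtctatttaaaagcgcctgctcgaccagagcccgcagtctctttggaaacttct
The Igf2r window held CACGTG in 2 places, a motif found in 6.05% of 27025 upstream windows of the same length, and had a GC content of 69.2% with 27 CpG dinucleotides. The Igfbp3 window was richer in GC, at 73.2% with 32 CpG dinucleotides, and the Igfbp5 window had 58.8% and 10, beside medians of 52.0% and 6 over all windows. None of the 4 motifs was in the Igfbp3 or Igfbp5 window, which says only that these letters are not there. Of the other genes, Igf1 held TGANTCA (6.87% of windows) and CCAAT (34.5%), Igfbp4 held TATAAA (12.97%), and Pappa2 held CCAAT. The windows of Igf1 (chr10:87860861-87861110) and Pappa2 (chr1:158958176-158958425) lie inside the gene spans given below, so they stand before an internal start. Upstream windows were matched for 8 of the 9 genes, all but Pappa.

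Igf1, the ligand, was highest in macrophage-like nuclei of all 3 libraries. The gene lies at chr10:87858265-87937042 on the plus strand of GRCm38, the build of the submitters' processing notes (mm10), with all coordinates here from the GENCODE vM21 annotation. Macrophage-like nuclei had 701 CPM (665 to 737) in the aneurysm library, 965 CPM (957 to 974) in the smoke library and 801 CPM (792 to 811) in the room air library. The 3 intervals do not overlap, but no ratio reached 1.5-fold, and the aneurysm-over-smoke log2 ratio ran between -0.54 and 0.17 under the other settings. Among the classes that carry the comparisons, fibroblast-like nuclei came next, with 383, 365 and 337 CPM in the aneurysm, smoke and room air libraries. Smooth muscle-like and endothelial-like nuclei were lower. Outside these classes, B cell-like nuclei had 389 CPM in the smoke library and 189 CPM in the room air library. Adipocyte-like nuclei had 238 CPM in the aneurysm library and 367 CPM in the smoke library. Both smoke values were above the fibroblast-like one, and the other values were below it. Of macrophage-like nuclei, 45.8% in the aneurysm library, 74.0% in the smoke library and 67.8% in the room air library had an Igf1 UMI, at median depths of 1169, 6870 and 4333 UMIs. After each nucleus was thinned to 1000 UMIs these shares were 39.4%, 46.5% and 41.7%. In the Bmp6- and Edn1-high endothelial cluster, which should make little Igf1, the thinned shares were 2.28%, 1.92% and 2.96%. The Bmp6- and Nos3-high endothelial cluster, described below, had far more Igf1 in each library. The shares of the Bmp6- and Edn1-high cluster are thus not an upper bound on background in other nuclei.

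Within the macrophage-like class, Igf1 differed more between clusters than between libraries. The Fgf13- and Fat3-high cluster had 1111 CPM in the aneurysm library, 1203 CPM in the smoke library and 1065 CPM in the room air library, a spread of under 1.5-fold. The Mmp12-high cluster had 506, 782 and 650 CPM, and the aneurysm value was 0.648 times the smoke value (0.530 to 0.784). The shallow F10-high cluster had 636, 564 and 484 CPM, so that here the aneurysm library was the highest. The F13a1- and Cd163-high cluster had 450 CPM (397 to 509) in the aneurysm library, 563 CPM (517 to 613) in the smoke library and 312 CPM in the room air library, 1.81-fold higher in smoke than in room air (1.44 to 2.30).

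**Figure D2:**
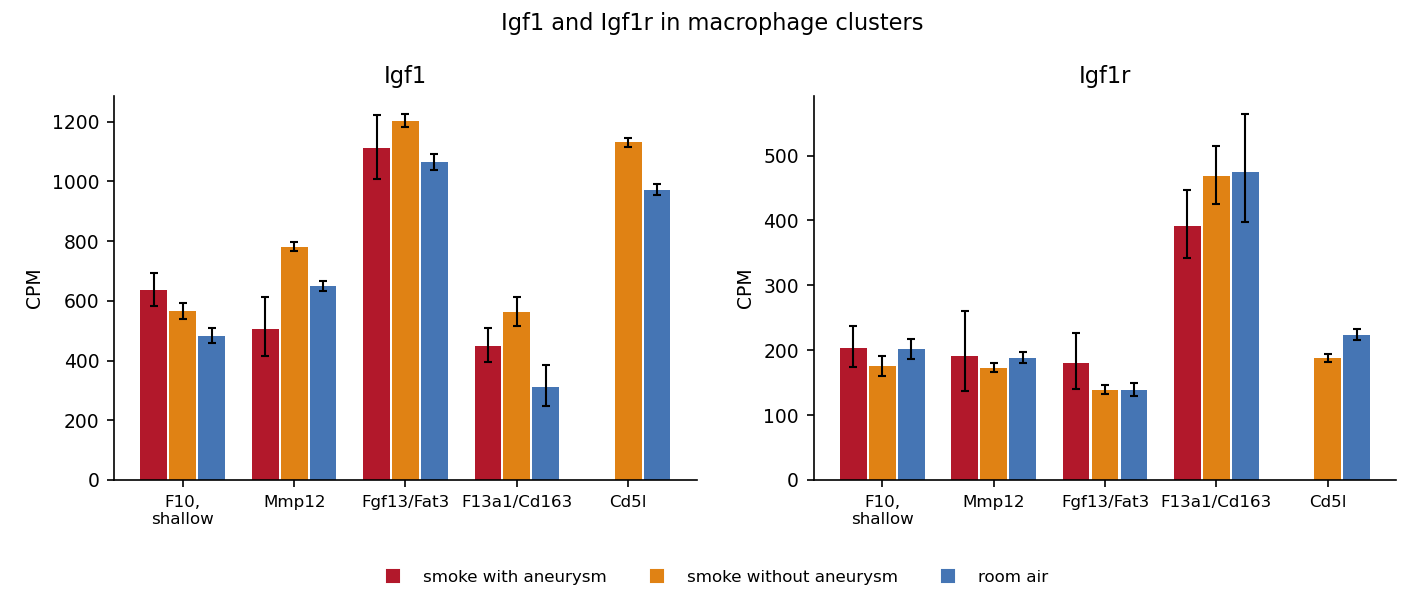
Igf1 and Igf1r in the macrophage-like clusters, as CPM with exact Poisson 95% intervals, for the aneurysm, smoke and room air libraries; the Cd5l-high bar of the aneurysm library is not drawn because it rests on 42 nuclei. Igf1 is highest in the Fgf13- and Fat3-high and Cd5l-high clusters, and Igf1r in the F13a1- and Cd163-high cluster.

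Over all nuclei, Igf1 was at 236 CPM in the aneurysm library, 548 CPM in the smoke library and 447 CPM in the room air library. Macrophage-like nuclei held 48.8% of all Igf1 UMIs in the aneurysm library, 84.4% in the smoke library and 88.8% in the room air library. They made up 22.0%, 44.7% and 48.6% of the nuclei of these libraries. The lower level over all nuclei of the aneurysm library was thus 0.431 times that of smoke, whereas within macrophage-like nuclei the ratio was 0.726 (0.689 to 0.764).

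In endothelial-like nuclei Igf1 was at 44.5 CPM in the aneurysm library, 112 CPM in the smoke library and 75.1 CPM in the room air library. The aneurysm value was 0.397 times the smoke value (0.331 to 0.472) and 0.592 times the room air value. Summed macrophage markers in the same nuclei were 336, 905 and 634 CPM in these libraries, in the same order, and all 10 markers had UMIs in each. The difference in level was larger in the Bmp6- and Nos3-high endothelial cluster, with Igf1 at 121, 531 and 388 CPM and macrophage markers at 751, 3694 and 2707 CPM. In the Bmp6- and Edn1-high cluster Igf1 was at 13.3, 27.5 and 25.6 CPM. In another setting the nuclei with the highest doublet scores were left out and the rest were clustered and named anew. The endothelial-like aneurysm-over-smoke difference was then 0.02 and the aneurysm-over-room-air difference 0.40 on the log2 scale. The nuclei called endothelial-like can differ there as well, and the scores come from a run that called no doublets. This setting thus cannot tell what doublets gave to the difference. The part of the macrophage RNA in this result was not tested. In smooth muscle-like nuclei Igf1 was at 53.0, 79.3 and 46.2 CPM, 1.72-fold higher in smoke than in room air (1.51 to 1.96), with macrophage markers at 393, 700 and 501 CPM. That difference was -0.07 on the log2 scale when nuclei were given equal weight.

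Igf1r, the signalling receptor (chr7:67952827-68233668, plus strand), was the only gene of the 9 with no called ratio in the 4 classes. Smooth muscle-like nuclei had 1014 CPM (954 to 1077) in the aneurysm library, 978 CPM (961 to 995) in the smoke library and 1023 CPM (999 to 1048) in the room air library, and the aneurysm interval overlaps both others. An Igf1r UMI was found in 77.4% of smooth muscle-like nuclei of the aneurysm library, 88.3% of the smoke library and 86.2% of the room air library. These shares are not at equal depth, as the median depths were 2033, 9808 and 5151 UMIs. Fibroblast-like nuclei had 596, 527 and 553 CPM, endothelial-like nuclei 405, 484 and 465 CPM, and macrophage-like nuclei 254, 175 and 195 CPM, so the order of the classes was the same in each library. Across these 4 classes and 3 comparisons the ratios ran between 0.836 and 1.45.

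Smaller units showed where Igf1r varied. The Grin2a-high unnamed cluster had 547 CPM in the aneurysm library, 600 CPM in the smoke library and 616 CPM in the room air library. Among macrophage-like clusters, the F13a1- and Cd163-high cluster had the most, with 392, 469 and 475 CPM, and the Fgf13- and Fat3-high cluster the least in the smoke and room air libraries, with 139 CPM in each, against 180 CPM in the aneurysm library. Lymphatic endothelial-like nuclei had 311 CPM (222 to 424) in the aneurysm library and 563 CPM (476 to 661) in the smoke library, a ratio of 0.553 (0.380 to 0.788) from 69 and 66 nuclei, in a class where 22.6% of all features were lower. In the Bmp6- and Edn1-high endothelial cluster the aneurysm value of 312 CPM was 0.705 times the smoke value of 443 CPM.

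Igf2r, which takes IGF2 and mannose 6-phosphate-tagged lysosomal enzymes to the lysosome, was lower in the aneurysm library than in smoke in the 4 classes, past 1.5-fold in 3 of them. Macrophage-like nuclei had 65.8 CPM (55.3 to 77.8) in the aneurysm library, 165 CPM (162 to 169) in the smoke library and 135 CPM (131 to 139) in the room air library. Smooth muscle-like nuclei had 44.5 CPM (32.7 to 59.1), 88.2 CPM (83.1 to 93.4) and 86.0 CPM (79.1 to 93.5) in these libraries. Fibroblast-like nuclei had 69.7, 119 and 99.0 CPM, and endothelial-like nuclei 78.8, 112 and 106 CPM. In all 4 classes the aneurysm library was the lowest and the smoke library the highest. The aneurysm-over-smoke ratio kept its direction in these classes under all 14 other settings. It was past 1.5-fold under 14 of them in smooth muscle-like nuclei, 13 in macrophage-like nuclei, 12 in fibroblast-like nuclei and 2 in endothelial-like nuclei.

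The aneurysm level of Igf2r was 0.398 times the smoke level in macrophage-like nuclei (0.334 to 0.471), 0.504 times in smooth muscle-like nuclei (0.368 to 0.675), 0.584 times in fibroblast-like nuclei (0.466 to 0.725) and 0.704 times in endothelial-like nuclei (0.614 to 0.805), the last within 1.5-fold. Adipocyte-like nuclei had 34.3 CPM in the aneurysm library and 74.7 CPM in the smoke library, a ratio of 0.460 (0.349 to 0.602) where 27.1% of all features were lower. The Grin2a-high cluster had 53.5, 96.1 and 96.6 CPM in the aneurysm, smoke and room air libraries. Against room air the aneurysm ratio was 0.487 in macrophage-like nuclei, 0.517 in smooth muscle-like nuclei, 0.703 in fibroblast-like nuclei and 0.741 in endothelial-like nuclei. Smoke over room air lay between 1.02 and 1.23 in the 4 classes. After thinning to 1000 UMIs, 6.96% of macrophage-like nuclei in the aneurysm library had an Igf2r UMI, 12.9% in the smoke library and 11.2% in the room air library.

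**Figure D3:**
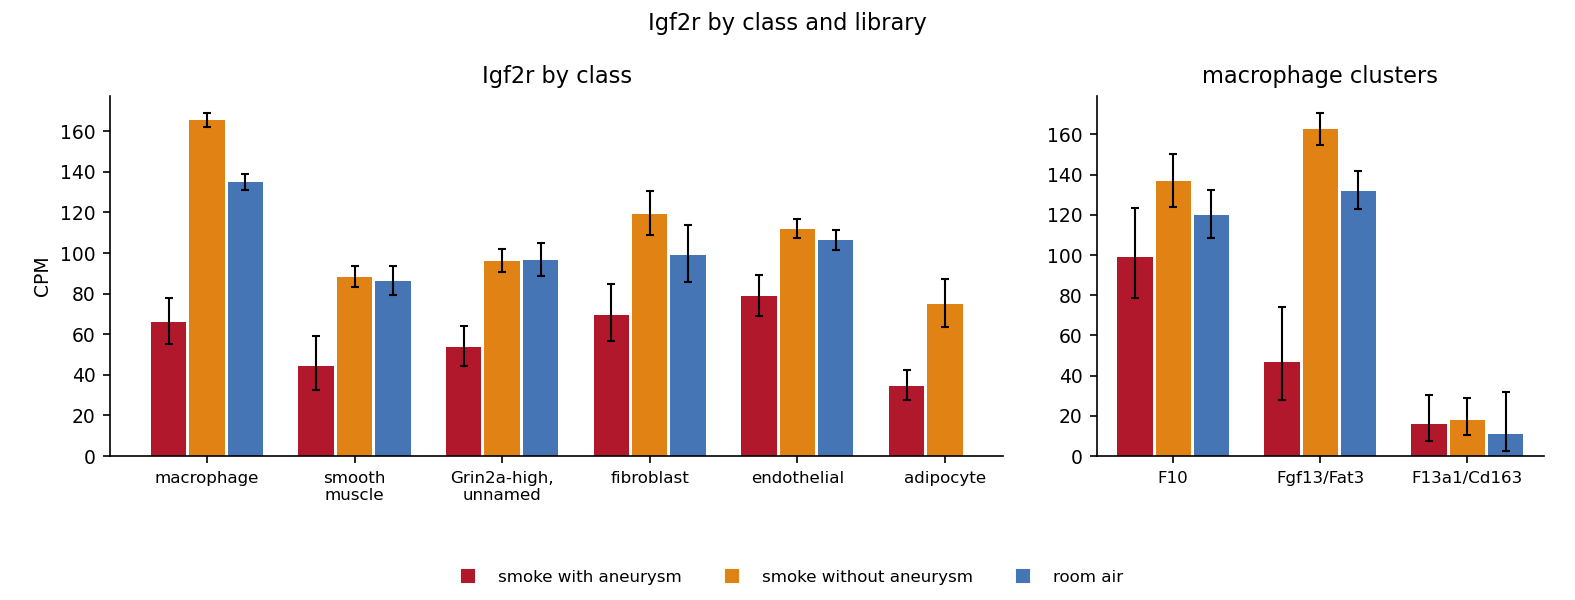
Igf2r CPM with exact Poisson 95% intervals for the aneurysm, smoke and room air libraries, by cell class (left; room air adipocyte-like nuclei, under 50, are not drawn) and in 3 macrophage-like clusters (right). The aneurysm bar is the lowest in each class drawn, and the F13a1- and Cd163-high cluster is at 15.9, 17.9 and 10.9 CPM, far under the other macrophage-like clusters.

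The size of the Igf2r difference varied with the kind of macrophage. The Fgf13- and Fat3-high cluster had 46.9 CPM in the aneurysm library, 163 CPM in the smoke library and 132 CPM in the room air library, 0.288 times smoke (0.170 to 0.457). In the shallow F10-high cluster the values were 99.3, 137 and 120 CPM, a ratio of 0.726 (0.565 to 0.924) that is within 1.5-fold. The F13a1- and Cd163-high cluster stood low in all 3 libraries, at 15.9 CPM (7.27 to 30.2) in the aneurysm library, 17.9 CPM (10.4 to 28.7) in the smoke library and 10.9 CPM (2.24 to 31.8) in the room air library, which rest on 9, 17 and 3 UMIs. This cluster held 336 of the 1254 macrophage-like nuclei of the aneurysm library, 178 of 6263 in the smoke library and 88 of 5358 in the room air library. The part of this difference in cluster makeup in the class values was not tested.

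Igf2r lies at chr17:12682406-12769664 on the minus strand of GRCm38, and the antisense RNA gene Airn, an imprinted transcript known in mice for silencing the paternal copy of Igf2r, overlaps 28354 of its bases on the other strand. Whether strand was used in counting is not stated in the processing notes or the files, and without it UMIs from the shared stretch cannot be told apart. Airn had 1176 CPM in macrophage-like nuclei of the aneurysm library, 1733 CPM in the smoke library and 1777 CPM in the room air library, and 957, 1506 and 1426 CPM in fibroblast-like nuclei. The Airn ratio of aneurysm over smoke was 0.679 in macrophage-like nuclei, 0.792 in smooth muscle-like nuclei and 0.635 in fibroblast-like nuclei. It was 0.709 in the Grin2a-high cluster and 0.267 in adipocyte-like nuclei, where Airn had 214 CPM in the aneurysm library and 802 CPM in smoke. In endothelial-like nuclei Airn was level across the libraries, at 1225, 1222 and 1212 CPM, with an aneurysm-over-smoke ratio of 1.00 (0.968 to 1.04), while Igf2r was at 0.704. In the F13a1- and Cd163-high macrophage cluster Airn was low as Igf2r was, at 168, 246 and 94.3 CPM. The part of Airn in the Igf2r values was not tested. Igf1, Igfbp7 and Pappa2 also have overlapping genes, which reached at most 24.6 CPM over all nuclei in any library.

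Igfbp5, a binding protein that attaches to extracellular matrix (chr1:72857932-72874884, minus strand), was highest in the aneurysm library and lowest in room air among fibroblast-like nuclei. Fibroblast-like nuclei had 163 CPM (143 to 186) in the aneurysm library, 80.5 CPM (72.0 to 89.9) in the smoke library and 28.7 CPM (21.7 to 37.3) in the room air library, from 237, 320 and 56 UMIs. The 3 intervals are apart. The level was 2.03-fold higher in the aneurysm library than in smoke (1.71 to 2.41), 2.80-fold higher in smoke than in room air (2.10 to 3.79) and 5.69-fold higher in the aneurysm library than in room air (4.24 to 7.75). Thinned to 1000 UMIs, 10.1% of fibroblast-like nuclei in the aneurysm library, 5.86% in the smoke library and 2.35% in the room air library had an Igfbp5 UMI, against 0.263%, 0.324% and 0.238% of macrophage-like nuclei, which should lack the gene.

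The order did not rest on 1 nucleus: without the nucleus richest in Igfbp5 the levels were 154 CPM in the aneurysm library, 73.8 CPM in the smoke library and 25.7 CPM in the room air library. The smoke-over-room-air and aneurysm-over-room-air ratios were past 1.5-fold under all 14 other settings tried, and the aneurysm-over-smoke ratio under 10 of the 14, with a lowest log2 ratio of 0.20 when each library was clustered alone. The fibroblast-like class itself differed between libraries in other RNA. Its summed fibroblast markers were 5680 CPM in the aneurysm library, 7893 CPM in the smoke library and 7708 CPM in the room air library. Its mesothelial markers were 27.6, 4.28 and 1.03 CPM, with UMIs for 4, 3 and 1 of the 6 markers, its adipocyte markers 177, 139 and 65.2 CPM, and its endothelial markers 447, 247 and 266 CPM. The part of this RNA in the Igfbp5 result was not tested.

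The order was also aneurysm, smoke, room air from high to low at very low levels in macrophage-like nuclei, with 4.29, 2.03 and 1.24 CPM, and in endothelial-like nuclei, with 3.27, 2.61 and 0.893 CPM, from 9 and 10 UMIs in the aneurysm library. Under 3 other settings the macrophage-like value was lower in the aneurysm library than in smoke. Smooth muscle-like nuclei had another order, in which Igfbp5 was at 22.7 CPM (14.5 to 33.8) in the aneurysm library, 51.4 CPM (47.5 to 55.4) in the smoke library and 25.2 CPM (21.5 to 29.3) in the room air library, so smoke stood 2.04-fold above room air and the aneurysm library at 0.442 times smoke (0.281 to 0.664). The Dgkb- and Xkr4-high smooth muscle cluster had 60.7, 129 and 42.4 CPM. Within the largest smooth muscle cluster, led by Cemip, Hs6st2 and Tgfb2, the smoke and room air values were 16.6 and 16.8 CPM. The Grin2a-high cluster had 33.6, 37.9 and 25.8 CPM. Lymphatic endothelial-like nuclei had the highest Igfbp5 of the classes with at least 50 nuclei, 731 CPM (591 to 895) in the aneurysm library and 437 CPM (361 to 525) in the smoke library, 1.67-fold higher (1.26 to 2.21) where 14.6% of all features were higher. Adipocyte-like nuclei had 7.36 CPM in the aneurysm library and 19.7 CPM in the smoke library, a ratio of 0.373 (0.202 to 0.662).

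Pappa, whose product cuts IGFBP4 and IGFBP5 (chr4:65124174-65357509, plus strand), stood in the opposite order to Igfbp5 in fibroblast-like nuclei. The level was 36.6 CPM (27.4 to 47.8) in the aneurysm library, 68.7 CPM (60.8 to 77.4) in the smoke library and 123 CPM (108 to 140) in the room air library, from 53, 273 and 240 UMIs. The 3 intervals are apart here too. The aneurysm level was 0.532 times smoke (0.389 to 0.716) and 0.297 times room air (0.216 to 0.401), and the smoke level was 0.558 times room air (0.467 to 0.666). Single nuclei weighed on these values: 1 nucleus gave 59 of the smoke UMIs and another 65 of the room air UMIs, and without the richest nucleus of each library the levels were 34.5, 54.0 and 90.7 CPM.

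The aneurysm and smoke libraries were not ordered steadily for Pappa in fibroblast-like nuclei. Thinned to 1000 UMIs, 3.58% of these nuclei in the aneurysm library, 3.26% in the smoke library and 5.87% in the room air library had a UMI. The aneurysm-over-smoke log2 ratio was 0.33 after thinning, 0.26 without the filter on nuclei and 0.07 without the mitochondrial limit, so its direction turned under 3 of 14 other settings. The aneurysm-over-room-air ratio was past 1.5-fold in all 14, and the smoke-over-room-air ratio in 12.

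The unnamed Grin2a-high cluster held most Pappa UMIs. Unnamed nuclei held 60.0% of all Pappa UMIs in the aneurysm library, 61.9% in the smoke library and 71.4% in the room air library. The Grin2a-high cluster had 104 CPM (91.0 to 118) in the aneurysm library, 109 CPM (103 to 115) in the smoke library and 261 CPM (248 to 274) in the room air library. Both smoke-exposed libraries were low and close to each other, at 0.398 times room air (0.345 to 0.457) for the aneurysm library and 0.417 times (0.386 to 0.450) for the smoke library, in a cluster where 13.2% and 4.13% of all features were lower. The thinned shares of nuclei with a UMI were 5.88%, 6.13% and 13.3%. The richest nucleus held 25 of 235 UMIs in the aneurysm library, 71 of 1188 in the smoke library and 195 of 1528 in the room air library. Summed smooth muscle markers of this cluster were 805, 760 and 525 CPM, and its fibroblast markers 1701, 2579 and 2629 CPM. Their part in the result was not tested.

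Smooth muscle-like nuclei had 35.0 CPM of Pappa (24.6 to 48.3) in the aneurysm library, 24.1 CPM (21.5 to 26.9) in the smoke library and 43.1 CPM (38.2 to 48.4) in the room air library. The smoke level was 0.559 times room air (0.474 to 0.659), but the log2 ratio was 0.16 after thinning, and 1 nucleus held 77 of the 309 smoke UMIs. In the Dgkb- and Xkr4-high cluster the values were 43.3, 4.54 and 36.7 CPM, from 15, 18 and 78 UMIs. Macrophage-like and endothelial-like nuclei had at most 2.55 CPM in any library. Striated muscle-like nuclei, a small class outside the comparisons, had 45 Pappa UMIs among 132036 in the aneurysm library (79 nuclei). In the smoke library they had 70 among 286337 (47 nuclei). Both are larger shares than in the Grin2a-high cluster, with 235 among 2263544 and 1188 among 10922553 UMIs. Striated muscle-like nuclei of the room air library had 0 Pappa UMIs in 15 nuclei.

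**Figure D4:**
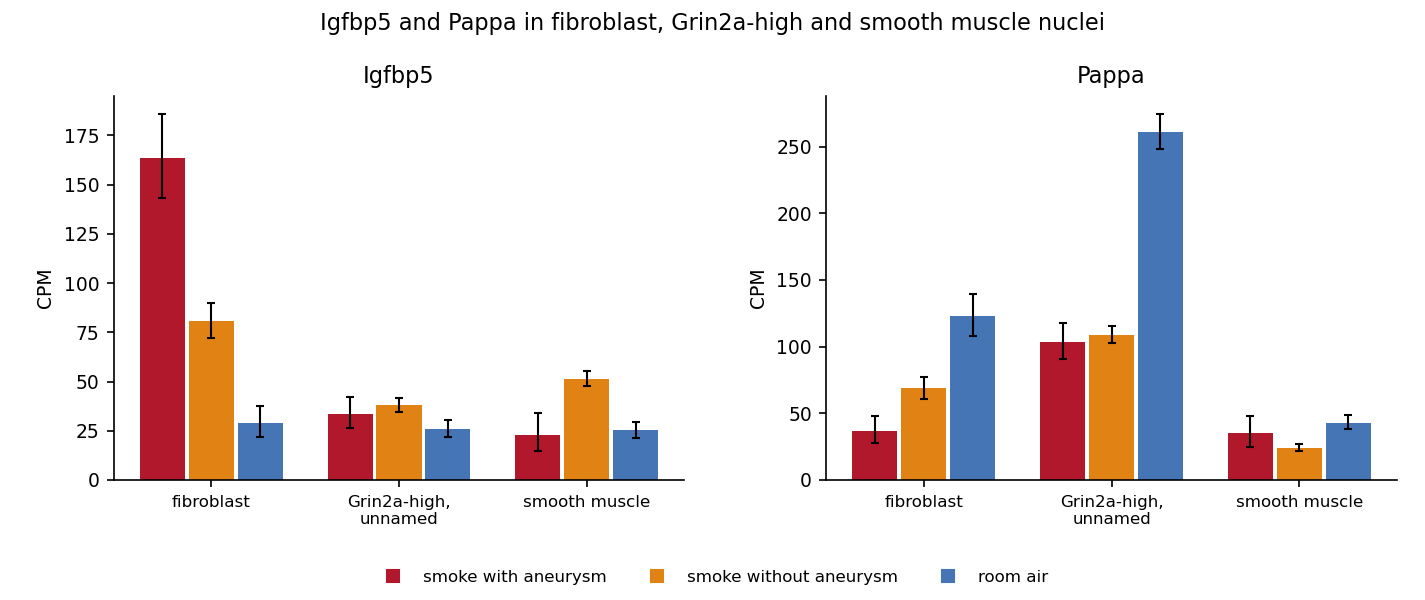
Igfbp5 and Pappa CPM with exact Poisson 95% intervals in fibroblast-like, Grin2a-high unnamed and smooth muscle-like nuclei of the aneurysm, smoke and room air libraries. In fibroblast-like nuclei Igfbp5 is at 163, 80.5 and 28.7 CPM while Pappa is at 36.6, 68.7 and 123 CPM; in the Grin2a-high cluster Pappa is at 104, 109 and 261 CPM.

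Pappa2, whose product cuts IGFBP3 and IGFBP5 (chr1:158711727-158980490, minus strand), was rare. Fibroblast-like nuclei had 11.03 CPM in the aneurysm library from 16 UMIs, 7.55 CPM in the smoke library from 30 UMIs and 1.03 CPM in the room air library from 2 UMIs, and the smoke-over-room-air ratio of 7.36 had an interval of 1.87 to 63.5. The Grin2a-high cluster had 8.39, 11.1 and 8.54 CPM, with overlapping intervals. In smooth muscle-like nuclei the values were 0.946, 2.42 and 1.23 CPM. Endothelial-like nuclei of the aneurysm library had 0 UMIs in 1012 nuclei, which allows a share of up to 0.296% of nuclei with a UMI.

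Igfbp3, the main carrier of IGFs in blood (chr11:7206086-7213923, minus strand), was a low transcript that was higher in the aneurysm library. Endothelial-like nuclei had 12.8 CPM (9.07 to 17.4; 39 UMIs) in the aneurysm library, 0.753 CPM (15 UMIs) in the smoke library and 0.638 CPM (10 UMIs) in the room air library. The aneurysm level was 16.9-fold higher than smoke (9.13 to 33.1) and 20.0-fold higher than room air (9.80 to 44.9), where 12.0% and 15.6% of all endothelial-like features were higher. In the Bmp6- and Edn1-high endothelial cluster the values were 15.8, 0.571 and 0.516 CPM, from 32, 7 and 6 UMIs, 27.7-fold higher in the aneurysm library than in smoke (12.0 to 74.3), where 10.6% of all features were higher. A single nucleus gave 10 of the aneurysm UMIs, and 1.88% of endothelial-like nuclei in the aneurysm library had a UMI, against 0.474% in the smoke library and 0.318% in the room air library, although the aneurysm nuclei were the shallowest.

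Fibroblast-like nuclei had 16.6 CPM of Igfbp3 (24 UMIs) in the aneurysm library, 5.29 CPM (21 UMIs) in the smoke library and 1.54 CPM (3 UMIs) in the room air library. The aneurysm level was 3.13-fold higher than smoke (1.67 to 5.91). Macrophage-like nuclei had 1.91, 0.108 and 0.0591 CPM, from 4, 6 and 2 UMIs. Over all nuclei Igfbp3 was at 5.73 CPM (4.49 to 7.20) in the aneurysm library, 0.492 CPM in the smoke library and 0.220 CPM in the room air library, and fibroblast-like nuclei held 24 and endothelial-like nuclei 39 of the 73 aneurysm UMIs.

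Igfbp7, which binds IGFs weakly (chr5:77349240-77408041, minus strand), was mainly a smooth muscle gene. Smooth muscle-like nuclei had 1324 CPM (1255 to 1395) in the aneurysm library, 1976 CPM (1952 to 2000) in the smoke library and 1812 CPM (1779 to 1845) in the room air library, all within 1.5-fold. The same order held in the smooth muscle cluster led by Cemip, Hs6st2 and Tgfb2, with 1700, 2500 and 2274 CPM. Fibroblast-like nuclei had 396, 536 and 504 CPM, and the Grin2a-high cluster 797, 1156 and 1148 CPM. Adipocyte-like nuclei had 258 CPM in the aneurysm library and 141 CPM in the smoke library. That is 1.82-fold higher (1.58 to 2.10), in a class where 15.4% of all features were higher.

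In endothelial-like nuclei Igfbp7 was highest in the aneurysm library, with 238 CPM (221 to 256) in the aneurysm library, 91.0 CPM (86.8 to 95.3) in the smoke library and 58.9 CPM (55.2 to 62.9) in the room air library. The aneurysm level was 2.62-fold higher than smoke (2.40 to 2.85) and 4.04-fold higher than room air, and smoke was 1.54-fold higher than room air. This class value joins clusters with very different levels. The Ccdc85a- and Adarb2-high cluster, larger in the aneurysm library, had 658, 815 and 1033 CPM, so that within it the aneurysm library was the lowest. The Bmp6- and Edn1-high cluster had 145, 54.1 and 37.4 CPM, 2.67-fold higher in the aneurysm library than in smoke (2.32 to 3.07). There the richest nucleus held 57 of 293 UMIs in the aneurysm library, 54 of 664 in the smoke library and 50 of 435 in the room air library. The Bmp6- and Nos3-high cluster had 57.0, 44.4 and 54.5 CPM, with overlapping intervals. With 15 principal components the endothelial-like log2 ratios were 0.59 for aneurysm over smoke, 0.33 for smoke over room air and 0.92 for aneurysm over room air.

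Igfbp4, an inhibitor of IGF action that Pappa's product cuts (chr11:99041244-99054392, plus strand), was within 1.5-fold in fibroblast-like nuclei, at 196, 189 and 179 CPM in the aneurysm, smoke and room air libraries. Under the other settings the log2 ratio there ran between -0.89 and 0.53 for aneurysm over smoke. For aneurysm over room air it ran between -0.92 and 0.73. In endothelial-like nuclei Igfbp4 was at 112 CPM (100 to 124) in the aneurysm library, 171 CPM (165 to 176) in the smoke library and 113 CPM (108 to 119) in the room air library. Smoke thus stood 1.51-fold above room air (1.42 to 1.59), and the aneurysm library at 0.654 times smoke (0.583 to 0.731) and level with room air. The Bmp6- and Edn1-high cluster showed the same shape, with 126, 235 and 131 CPM, while the Bmp6- and Nos3-high cluster had 214, 66.7 and 62.4 CPM and so was 3.20-fold higher in the aneurysm library than in smoke. At a clustering resolution of 2 both endothelial-like differences turned, to log2 ratios of 0.12 for aneurysm over smoke and -0.20 for smoke over room air.

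**Figure D5:**
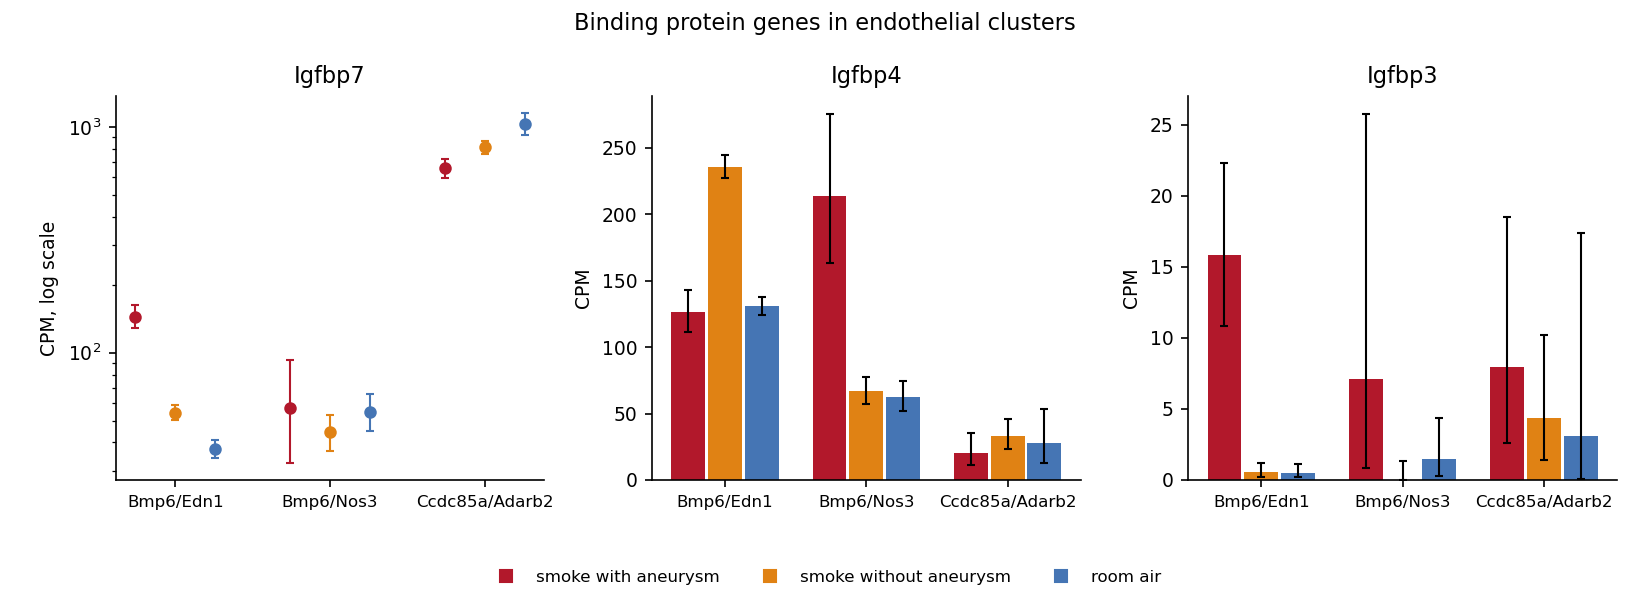
Igfbp7 (points, log10 axis), Igfbp4 and Igfbp3 (bars) as CPM with exact Poisson 95% intervals in 3 endothelial-like clusters of the aneurysm, smoke and room air libraries. In the Bmp6- and Edn1-high cluster Igfbp7 is at 145, 54.1 and 37.4 CPM and Igfbp3 at 15.8, 0.571 and 0.516 CPM, while Igfbp4 peaks in the smoke library at 235 CPM.

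In macrophage-like nuclei Igfbp4 and Igfbp7 were low, and their class values were higher in the aneurysm library. Igfbp4 was at 21.0, 6.77 and 5.08 CPM in the aneurysm, smoke and room air libraries, 3.10-fold higher in the aneurysm library than in smoke (2.22 to 4.24). Igfbp7 was at 35.8, 16.7 and 11.8 CPM, 2.15-fold higher (1.67 to 2.72). The differences varied between the clusters of the class. In the shallow F10-high cluster Igfbp4 was at 13.6 CPM (11 UMIs) in the aneurysm library and 18.7 CPM in the smoke library, a ratio of 0.730 (0.345 to 1.40), and Igfbp7 was at 58.3 and 47.4 CPM, a ratio of 1.23 (0.867 to 1.72). The F13a1- and Cd163-high cluster, larger in the aneurysm library, held 28 of its 44 Igfbp4 UMIs, at 49.4 CPM against 30.5 CPM in the smoke library, a ratio of 1.62 (0.928 to 2.82). Its Igfbp7 was at 31.8 CPM (18 UMIs) in the aneurysm library and 14.7 CPM (14 UMIs) in the smoke library, a ratio of 2.16 (1.01 to 4.68). Fibroblast markers in these nuclei were 172, 99.8 and 85.7 CPM, smooth muscle markers 83.0, 35.5 and 31.4 CPM, and striated muscle markers 554, 19.7 and 12.3 CPM. Their part in these results was not tested. With 15 principal components both aneurysm-over-smoke ratios turned, to -0.23 for Igfbp4 and -0.11 for Igfbp7 on the log2 scale. In smooth muscle-like nuclei Igfbp4 was at 18.9 CPM (20 UMIs) in the aneurysm library, 10.6 CPM in the smoke library and 10.3 CPM in the room air library, 1.79-fold higher in the aneurysm library than in smoke (1.06 to 2.87), and the log2 ratio was -0.60 when nuclei were given equal weight.

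Other genes of the pathway were read from 3 lists, chosen with earlier results of these data known. Of 10 other ligands, binding proteins and regulators, 4 passed the UMI minimum in each class between the aneurysm and smoke libraries, with 3 higher and 1 lower in macrophage-like nuclei (23.7% and 15.9% of all features). Smooth muscle-like nuclei had 1 and 1 (12.8% and 21.4%), fibroblast-like nuclei 0 and 0 (14.8% and 20.0%), and endothelial-like nuclei 2 and 2 (12.0% and 20.1%). The same shares over all features stand behind the aneurysm-over-smoke counts of the other lists. The list's median log2 ratio in macrophage-like nuclei was 0.86, beside 0.05 over all features, from 4 genes. Igf2, the other ligand, had 0 UMIs in the aneurysm and smoke libraries and 1 UMI in the room air library. Insr, the insulin receptor, was at 336 CPM in endothelial-like nuclei of the aneurysm library, 205 CPM in the smoke library and 187 CPM in the room air library, 1.64-fold higher in the aneurysm library than in smoke (1.53 to 1.75), and at 199, 133 and 133 CPM in macrophage-like nuclei. Htra1, a secreted protease that can cut IGF binding proteins, was at 28.1, 57.6 and 69.3 CPM in macrophage-like nuclei and 78.5, 136 and 105 CPM in endothelial-like nuclei. Igfbp6, which prefers IGF2, was at 43.4, 36.0 and 17.96 CPM in fibroblast-like nuclei, 2.00-fold higher in smoke than in room air (1.38 to 2.99). Igfbp2 was at 46.4, 24.5 and 32.5 CPM in smooth muscle-like nuclei. Igfals, which joins IGF and binding protein into a larger complex in blood, was at 1.31 CPM in endothelial-like nuclei of the aneurysm library and 1.98 CPM in the room air library, a ratio of 0.661 (0.170 to 1.87).

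Of 17 genes that act below IGF1R and the insulin receptor, 4 were higher and 2 lower in macrophage-like nuclei of the aneurysm library than of smoke, beside 23.7% and 15.9% of all features, with a median log2 ratio of 0.04 beside 0.05. These counts are near the shares over all features. The counts were 1 and 1 in smooth muscle-like nuclei, and 1 and 2 in fibroblast-like nuclei and again in endothelial-like nuclei. Between smoke and room air 0 of the 17 passed 1.5-fold in macrophage-like or smooth muscle-like nuclei, 1 was lower in fibroblast-like nuclei and 1 higher in endothelial-like nuclei. Of all features in this comparison, 10.8% were higher and 5.46% lower in macrophage-like nuclei, and 12.7% and 4.38% in smooth muscle-like nuclei. The shares were 16.4% and 5.01% in fibroblast-like nuclei and 14.2% and 3.44% in endothelial-like nuclei. Pik3cb, a catalytic subunit of phosphoinositide 3-kinase, was lower in the aneurysm library than in smoke in 3 classes, with 301, 618 and 547 CPM in macrophage-like nuclei of the aneurysm, smoke and room air libraries and 39.3, 95.1 and 75.4 CPM in fibroblast-like nuclei. In smooth muscle-like nuclei it was at 36.9 CPM in the aneurysm library and 64.7 CPM in the smoke library. Grb14, an adaptor that inhibits the insulin receptor, was at 51.0, 105 and 113 CPM in fibroblast-like nuclei, 0.485 times smoke in the aneurysm library (0.374 to 0.622). Irs2, a docking protein for both receptors, was at 2.29, 8.74 and 8.80 CPM in endothelial-like nuclei, where Grb14 was at 2.46 CPM in the smoke library and 1.15 CPM in the room air library. Tsc2, a brake on mTOR complex signalling, was at 20.7, 10.3 and 15.9 CPM in fibroblast-like nuclei, and at 23.5 CPM in endothelial-like nuclei of the aneurysm library against 14.4 CPM in the room air library. Pik3ca, another catalytic subunit of phosphoinositide 3-kinase, was at 163 CPM in fibroblast-like nuclei of the aneurysm library and 103 CPM in the room air library.

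Of 5 growth hormone genes that act above Igf1, 2 were higher and 1 lower in macrophage-like nuclei of the aneurysm library than of smoke, beside 23.7% and 15.9% of all features. In the same comparison 0 passed 1.5-fold in smooth muscle-like nuclei, and 1 was higher and 0 lower in fibroblast-like nuclei and again in endothelial-like nuclei. None of the 5 passed 1.5-fold between smoke and room air in any of the 4 classes, beside the shares over all features given above for that comparison. Ghr, the growth hormone receptor, was at 178 CPM in macrophage-like nuclei of the aneurysm library, 20.1 CPM in the smoke library and 20.6 CPM in the room air library, 8.87-fold higher in the aneurysm library than in smoke (7.87 to 9.98). Ghr was at 7954 CPM in adipocyte-like nuclei of the aneurysm library and 5201 CPM in those of the smoke library, and over all nuclei at 2281, 567 and 498 CPM. The part of adipocyte RNA in the macrophage-like Ghr values was not tested. Socs2, a feedback inhibitor of growth hormone signalling, was at 134 CPM in endothelial-like nuclei of the aneurysm library and 86.4 CPM in the smoke library, and at 26.9 and 16.9 CPM in fibroblast-like nuclei of the aneurysm and smoke libraries. In smooth muscle-like nuclei it was at 66.2 CPM in the aneurysm library and 40.3 CPM in the room air library. The list named handling stress held 13 immediate early and heat shock genes, such as Fos, Jun and Hspa1a. With 1 library per group, exposure and tissue handling cannot be told apart for these genes. Of the 13, 7 were higher and 1 lower in smoke than in room air in macrophage-like nuclei (10.8% and 5.46% of all features), and 10 and 0 in endothelial-like nuclei (14.2% and 3.44%). The counts were 2 and 0 in smooth muscle-like nuclei (12.7% and 4.38%) and 1 and 0 in fibroblast-like nuclei (16.4% and 5.01%). Between the aneurysm and smoke libraries 0 were higher and 6 lower in fibroblast-like nuclei (14.8% and 20.0%) and 0 and 5 in endothelial-like nuclei (12.0% and 20.1%). In the same comparison 5 were higher and 2 lower in macrophage-like nuclei (23.7% and 15.9%), and 2 and 3 in smooth muscle-like nuclei (12.8% and 21.4%).

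The genes with profiles most like each gene of the axis were taken over 23 points, each 1 class in 1 library with at least 50 nuclei, by Pearson's r of log2(CPM + 10) among 7175 genes. The points share libraries and differ in depth, and the values are a description. Igf1 was nearest to Dtnbp1 (r = 0.941), Pltp (0.912) and Lrp1 (0.894). Igf1r was nearest to Stk39 (0.909), Itgb8 (0.876) and Farp1 (0.859), and Igf2r to Snx12 (0.831), Myof (0.790) and Glmn (0.775). Igfbp3 was nearest to Pi16 (0.782), a fibroblast marker, Pcdh19 (0.772) and Lmx1a (0.741). Igfbp4 was nearest to Cd34 (0.954), a marker shared by endothelial and stromal cells, Arhgap20 (0.946) and Pi16 (0.907). Igfbp5 was nearest to Sema3d (0.947), Flvcr2 (0.904) and Piezo2 (0.886), and Igfbp7 to Garem1 (0.948), B3galt1 (0.944) and Hoxc4 (0.931). Pappa was nearest to Tenm3 (0.931), Cobl (0.928) and L3mbtl4 (0.928), and Pappa2 to Pla1a (0.788), Tmem100 (0.768) and Aldh1a2 (0.708). Among the genes of the axis themselves, the highest values were 0.700 for Igf1r with Igfbp7, 0.674 for Igfbp7 with Pappa and 0.652 for Igfbp3 with Igfbp4.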

How the data were processed

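The deposited tables hold un-normalized UMI counts for each gene in each barcode. Per the file headers the authors made these counts with cellranger 8.0.1. The submitters' processing notes give mm10, STAR and another version, Cell Ranger 2.2.0, and which is right was not settled. Every deposited barcode had at least 500 UMIs. Per the labels' protocols, nuclei were purified with anti-nucleus beads on a column.

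Barcodes were kept from 500 UMIs and 300 genes upward, with under 5% mitochondrial UMIs. Scrublet called 0 doublets in each library at expected rates of 5.88% for aneurysm, 11.89% for smoke and 10.55% for room air, so it had not worked and doublets remain. After scaling and log transformation of each nucleus, 2000 variable genes, 30 principal components and 20 neighbours gave 26 Leiden clusters at resolution 1, with no batch integration (scanpy 1.11.5, leidenalg 0.10.2, Python 3.11.15). A class name needed a mean marker score of 0.5, a margin of 0.3 over the next class (set after seeing the data, which left the Grin2a-high cluster and an Adgre4-high cluster unnamed), 3 detected markers, and no lead of other classes' markers among the top 10 genes, which left a Tagln- and Igkc-high cluster unnamed.

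UMIs were summed per class and library and scaled to CPM with exact Poisson intervals. Ratios have exact conditional binomial intervals and shares of nuclei Clopper-Pearson intervals, all at 95% and covering counting error only. Ratios needed 50 nuclei in both libraries. For thinned shares, nuclei under 1000 UMIs were left out. The calling of ratios was tested on simulated data, in which some unchanged features also passed 1.5-fold, so each count of called ratios includes some that counting error alone can give. The members and gene lists were chosen with earlier results of these data known. Named were all 9 genes and, from the lists, up to 2 genes per direction, class and comparison with at least 30 UMIs in the higher library, ranked by the bound nearest 1, and the 3 genes nearest each member by correlation. Alternatives to these settings were run 1 at a time. Those that changed the nuclei kept, the components, the resolution or the genes used were clustered and named anew.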

Additional observations from a re-analysis of the deposited data

Results flagged for a closer look

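Igfbp4 and Igfbp5 stood in opposite directions in different classes under the same comparison, aneurysm over smoke. With 1 library per group the difference between classes was not tested. Igfbp4 had a CPM ratio of 3.10 in macrophage-like nuclei and 1.79 in smooth muscle-like nuclei, but 0.654 in endothelial-like nuclei. Each of these 3 Igfbp4 ratios turned under at least 1 other setting, to log2 values of -0.23 and -0.45 in macrophage-like nuclei, -0.60 in smooth muscle-like nuclei and 0.12 in endothelial-like nuclei. Igfbp5 had a ratio of 2.03 in fibroblast-like nuclei and 1.67 in lymphatic endothelial-like nuclei, but 0.442 in smooth muscle-like nuclei and 0.373 in adipocyte-like nuclei.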

How the results depend on the processing

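Of 97 ratios tested in the 4 classes, 47 were past 1.5-fold. Of those, 33 kept their direction under every alternative in which they were tested, and 18 also stayed past 1.5-fold in each of these. Many were not tested in all 14 alternatives, so holding up in this count can rest on fewer. Pappa in endothelial-like nuclei, aneurysm over smoke, was tested in 10, and Pappa2 in macrophage-like nuclei, aneurysm over room air, in 11. Igfbp5 in fibroblast-like nuclei over room air, for both smoke and aneurysm, and Igf2r in smooth muscle-like nuclei for aneurysm over smoke, are among the 18. These were tested in all 14. No paired analysis was possible because each group has 1 library, and for the same reason no replicate could be left out. After thinning to 1000 UMIs, aneurysm over smoke had 5 pairs higher (11 in the analysis reported) and 4 lower (8), smoke over room air 6 higher (10) and 1 lower (4), and aneurysm over room air 5 higher (10), with fewer pairs tested (24, 25 and 23). With 1 cluster per class, chosen after seeing the data, aneurysm over smoke had 4 higher, smoke over room air 2 lower and aneurysm over room air 6 higher, again with fewer pairs tested (29, 31 and 27). With the mean of per-nucleus CPM, aneurysm over smoke had 5 lower. With each library clustered alone, aneurysm over room air had 10 lower (4), and 4 genes (7) had the same highest class in the 3 libraries. Shares over all features were not computed under these settings, so whether these counts stand apart from all features cannot be told.

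Reversed log2 ratios were as follows. In macrophage-like nuclei, aneurysm over smoke, Igfbp4 was at -0.23 (15 principal components) and -0.45 (1 cluster), Igfbp5 at -0.30 (thinned), -0.21 (per-nucleus mean) and -1.11 (1 cluster), and Igfbp7 at -0.11 (15 principal components). Pappa there was at 0.90 for smoke over room air (1 cluster). In smooth muscle-like nuclei, Igfbp4 was at -0.60 for aneurysm over smoke and Igf1 at -0.074 for smoke over room air (per-nucleus mean). For smoke over room air in the same nuclei, Igfbp5 was at -0.022 (1 cluster), Pappa at 0.16 (thinned) and Pappa2 at -1.08 (each library alone). In fibroblast-like nuclei, Pappa for aneurysm over smoke was at 0.26 (no filter), 0.069 (no mitochondrial limit) and 0.33 (thinned). In endothelial-like nuclei, Igf1 was at 0.025 for aneurysm over smoke and 0.40 for aneurysm over room air (without the highest doublet scores, clustered anew). Igfbp4 there was at 0.12 for aneurysm over smoke and -0.20 for smoke over room air (resolution 2). The cause was not tested in any of these. The aneurysm library kept 12744745 UMIs, the fewest of the 3.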
